A study of Bos taurus with 60 samples.

Results

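The 2nd week of the dry period was examined by comparing mammary tissue taken 14 days after dry-off (D14) with tissue taken 7 days after dry-off (D7). All 24 libraries labelled with either day were used, of 60 in the series, so that 12 cows contributed on each side. The animals were multiparous Holstein cows, 6 kept cool under shade with fans and soakers (CL) and 6 heat-stressed under shade alone (HT), and both treatments were pooled. Every cow was biopsied 3 days before milking stopped (D-3) and on D3, D7, D14 and D25 afterwards, and a library of poly(A) RNA was sequenced from each biopsy. Bulk tissue cannot tell fewer cells of a type from less RNA per cell. Total counts of the 24 libraries ran from 21082110 to 26183990, and 14714 of 25223 loci were abundant enough to test.

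When milking stops, milk accumulates in the udder and the gland involutes: secretory cells lower their synthetic activity, some die, tight junctions open, the matrix is remodelled and macrophages and neutrophils clear milk fat, protein and dead cells. In the dairy cow this takes place during pregnancy, so the alveoli are largely kept and the tissue later proliferates again before calving. The D14 to D7 comparison asks how much of the transcriptome still moved once the first week had passed.

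Gene symbols could be attached to 3033 loci, all through those of the study's supplementary lists that were at hand, this step included. These lists did not name every gene that the study reported. CSN1S2, SOCS3 and BAX, which the paper reports as changed at D3, were not among the tested loci with a symbol. Which loci carry a symbol may depend on their p-values in the study. Counts over named genes are therefore not independent evidence of a direction, and many well-known mammary genes go unnamed here.

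No locus differed between D14 and D7 at a false discovery rate (FDR) of at most 0.05 in edgeR's quasi-likelihood test, which is 0% of the loci tested. The smallest FDR was 0.160. At an unadjusted p of at most 0.05 there were 257 loci, 237 higher at D14 (1.61% of loci) and 20 lower (0.136%). For no locus were the 12 D14 values clear of the 12 D7 values (0%). Differences were small: the median absolute log2 fold change was 0.07, and 95% of loci lay under 0.44. In the same fit that median was 0.20 from D-3 to D3, 0.15 from D3 to D7 and 0.10 from D14 to D25, and the loci at the FDR threshold numbered 2217, 430 and 9.

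The missing calls do not by themselves show that levels stayed the same, so the interval of each change was examined. The 95% interval lay entirely within 1 log2 unit of no change for 13060 loci (88.8%) and within 0.5 for 8834 (60.0%). This precision depended on level. Between 10 and 100 counts per 1000000 counted reads (CPM) 95.4% of 8346 loci had such an interval within 1 log2 unit, whereas under 1 CPM only 50.6% of 862 did. Above 1000 CPM, where the caseins CSN1S1 and CSN2 lie, it was 67.8% of 59 loci. Among named loci over 100 CPM the narrowest intervals belonged to CYFIP1, an actin regulator, SAFB2, a nuclear matrix protein, C23H6orf89 and 2 loci that join neighbouring genes (OTUD5 with PIM2, BCL2L2 with PABPN1). CYFIP1 ran from 148 to 179 CPM at D7 and from 153 to 187 CPM at D14, a log2 fold change of 0.02 ± 0.06 (SE). SAFB2 differed by 0.00 ± 0.07.

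**Figure D1:**
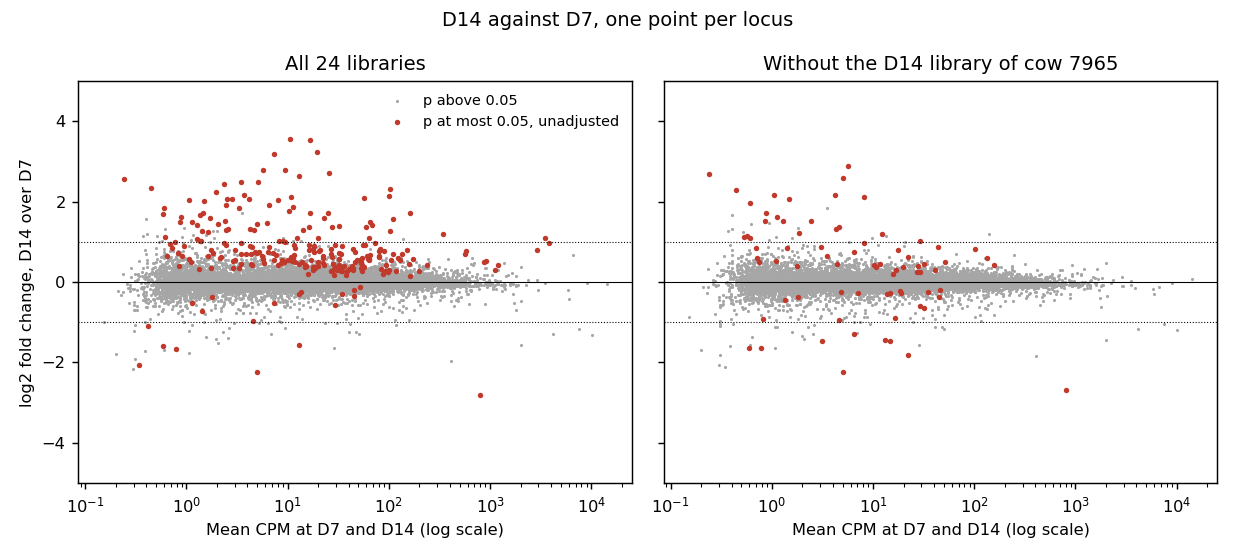
Each point is a locus, placed by its mean CPM over D7 and D14 (log scale) and its log2 fold change of D14 over D7, with all 24 libraries on the left and without the D14 library of cow 7965 on the right. Red points have an unadjusted p of at most 0.05, 257 on the left and 77 on the right, dotted lines mark a change of 1 log2 unit, and 1 locus at -6.06 lies outside the axes.

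Of the 24 libraries 1 stood far apart. The D14 library of cow 7965, a cooled cow, differed from the mean of the other 11 D14 libraries by a root mean square of 1.53 log2 units, against 0.479 to 0.727 for the other 23 libraries within their own day. The luminal epithelial keratin KRT19 was at 3.36 CPM in it and at 231 CPM or more in the other D14 libraries. The 3 luminal markers with a symbol (KRT19, KRT7 and CLDN4) summed to 6.82 CPM there, whereas the other 11 libraries ran from 583 to 2645 CPM. KRT5, a basal keratin, was at 6.58 CPM, while the summed basal and smooth muscle markers, at 2082 CPM, were inside the range of the other libraries (886 to 2674 CPM). DCN, the fibroblast proteoglycan decorin, was at 5396 CPM against at most 1559 CPM, and the endothelial receptor KDR at 354 CPM against at most 160 CPM. This library thus held almost no transcripts of the named luminal markers.

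The named genes furthest from the other D14 libraries in the 7965 library stood on both sides. The secretoglobin SCGB2A2 was not counted there, SCGB1D was at 0.144 CPM, the mucin MUC15 at 0.0480 CPM and the trefoil peptide TFF3 at 0.0960 CPM, against D14 medians of 18.5, 34.3, 24.1 and 33.2 CPM. On the high side stood SEMA5B, an axon guidance semaphorin (65.9 CPM), LRRC17 (207 CPM), the matrix protein dermatopontin DPT (610 CPM), the cholinesterase BCHE (35.6 CPM) and LOC510860 (27.9 CPM). Their D14 medians were 1.77, 7.92, 36.6, 2.80 and 3.05 CPM.

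**Figure D2:**
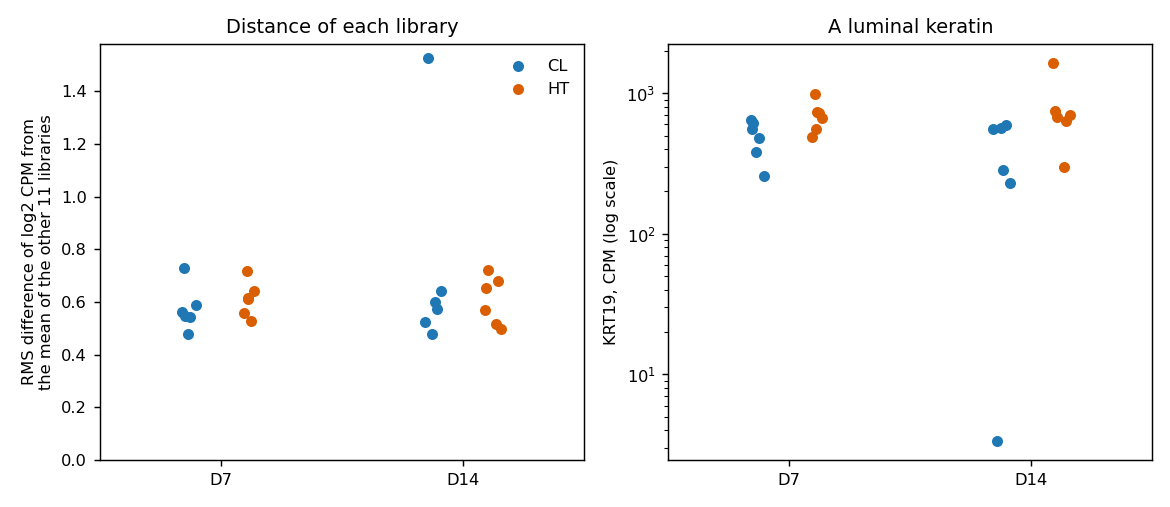
The left panel gives, for each of the 24 libraries, the root mean square difference of its log2 CPM values from the mean of the other 11 libraries of its day, and the right panel its KRT19 level in CPM on a log scale, for cooled (CL) and heat-stressed (HT) cows. The D14 library of cow 7965 is the point at 1.53 on the left and at 3.36 CPM on the right.

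This 1 library was the highest of the 12 D14 libraries at 173 of the 237 loci that were higher at p of at most 0.05. Over all loci it was the highest at 23.3%. Without it, 77 loci had such a p, 51 higher (0.347%) and 26 lower (0.177%), and 56 of these were among the 257. No locus passed the FDR threshold without it either (0%). The 2 unnamed loci with the smallest p, XLOC_021776 and XLOC_017093, were at 53.0 and 218 CPM in this library and at a D14 median of 1.68 and 1.57 CPM. Their log2 fold changes of 2.18 ± 0.47 and 3.56 ± 0.78 became 0.39 and -0.12 without it. SEMA5B turned from 1.44 ± 0.48 to -0.44, LRRC17 from 1.09 to -0.25 and DPT from 1.08 to -0.07. Of the 97 loci chosen for naming, 17 changed sign without that library and 29 more moved by over 1.5 times, and many values below are given both ways.

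Of the 3007 tested loci with a symbol, 54 were higher at D14 at an unadjusted p of at most 0.05 and 8 were lower, and none passed the FDR. Of all 14714 loci 237 (1.61%) were higher at that p and 20 (0.136%) lower. The 7965 library was the highest at D14 for 32 of the 62 with a symbol, beside 23.3% of all loci. ABCA1, the transporter that exports cholesterol from cells, ran from 61.9 to 140 CPM (median 101) at D7 and from 87.5 to 279 CPM (median 161) at D14. The D14 values overlapped those of D7 but were higher in 10 of 12 cows, with a log2 fold change of 0.70 ± 0.25 (p = 0.00616, FDR above 0.05 in edgeR's quasi-likelihood test) and of 0.60 without the 7965 library. CD300A, an inhibitory receptor of myeloid cells, ran from 6.67 to 13.5 CPM at D7 and from 7.83 to 26.8 CPM at D14. It was likewise higher in 10 of 12 cows, by 0.51 ± 0.18, and by 0.45 without that library. VNN1, the pantetheinase vanin 1, had medians of 5.14 and 9.09 CPM, ranges of 2.36 to 11.6 and 5.06 to 24.8 CPM, and a log2 fold change of 1.03 ± 0.41. Without cow 8713 its change was 0.83 and its p 0.061 in edgeR.

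HMOX1, haem oxygenase 1, which degrades haem, had a D7 median of 42.2 CPM (18.6 to 209) and a D14 median of 65.7 CPM (35.3 to 580). Its log2 fold change of 1.28 ± 0.41 was 0.82 without the 7965 library, whose 580 CPM was the highest value, and 8 of 12 cows were higher. Without cow 7965 altogether its p was 0.061, and with each cow as its own control over the 24 libraries it was 0.082 (both in edgeR). GPNMB, a glycoprotein of lipid-laden macrophages, stood at 1.50 ± 0.56 with that library, where it reached 554 CPM, and at 0.69 without it (p = 0.19 in edgeR), and the paired p was 0.16. The chemokine CCL3 was at 0.98 ± 0.33 and then 0.66, with a p of 0.062 without cow 7965 and a paired p of 0.074 in edgeR. ADGRE1, the macrophage antigen F4/80, was at 1.45 ± 0.49 and then 0.92, with a p of 0.077 without that cow. AIF1, the macrophage marker that could be named, ran from 13.2 to 41.9 CPM at D7 and from 18.3 to 57.4 CPM at D14, a difference of 0.44 ± 0.19. NLRC4, an inflammasome sensor, had 0.55 ± 0.21 and 0.43 without the library. AIF1 lost p = 0.05 without cow 7965, 8314 or 8668 and NLRC4 without cow 7965 or 8668. ABCA1, VNN1 and CD300A had paired p-values of 0.0097, 0.0027 and 0.012 over the 24 libraries in edgeR, each with an FDR of 0.9998. With cow as a block over all 60 libraries, the 7965 library included, HMOX1, GPNMB and CCL3 had p-values of 0.0049, 0.016 and 0.0076 in edgeR.

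Of the lipid-laden macrophage list, 5 of 7 named members were higher at D14, and 4 of them had an unadjusted p of at most 0.05, beside 1.61% of all loci. Without the 7965 library 3 had such a p, beside 0.347% of all loci higher. Only loci in the study's lists at hand carry a symbol, which may depend on their p-values, and 7 of the 14 macrophage genes had one. These shares therefore carry no test of the list. The median over the list was 0.51 (0.45 without the 7965 library) beside 0.00 over all loci. The exceptions were LPL and PLIN2, which also serve milk fat synthesis, at -0.62 ± 0.57 and -0.48 ± 0.40. Of 5 haem and iron genes, HMOX1 alone had a p under 0.05, and BLVRA, TFRC, SLC48A1 and TF lay between -0.01 and 0.17. LOC100850059, annotated by the study as haemoglobin subunit beta, was barely counted, at medians of 0.0192 and 0.409 CPM, and its log2 fold change of 2.34 ± 0.83 was 1.58 without cow 8647 (p = 0.070 in edgeR). The locus shared by LOC104968634 and LOC616323 had a log2 fold change of 1.51 ± 0.51 that became 0.56 without cow 8668. Of the innate immune list LBP, C3 and CFB ran in different directions: complement C3 had a D7 median of 1018 CPM (320 to 7794) and a D14 median of 667 CPM (424 to 5686).

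The named enzymes of cholesterol synthesis had negative log2 fold changes, and some were lower at D14 in nearly every cow. The study had listed 12 of the loci tested here for steroid biosynthesis and terpenoid backbone biosynthesis, from their change between D-3 and D3, and all 12 were lower at D14 than at D7. They were picked out after their values were seen. All 12 had also been called lower from D-3 to D3, and of 1330 loci so called 982 were lower again at D14. The median log2 fold change of the 12 was -0.33, and it was -0.34 without the 7965 library, -0.32 in CL cows and -0.33 in HT cows. None had an unadjusted p of at most 0.05 in the unpaired comparison, where the smallest was 0.085.

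LSS, lanosterol synthase, ran from 19.5 to 51.7 CPM at D7 (median 30.3) and from 16.7 to 40.6 CPM at D14 (median 22.5), and was lower at D14 in 12 of 12 cows. MSMO1, which acts late in sterol synthesis, and HMGCS1 and IDI1, which act early, were lower in 11 of 12 cows. The loci furthest from this were SC5D (-0.22 ± 0.25), lower in 7 of 12, and HSD17B7 and FDPS, lower in 8 of 12, with FDPS at -0.05 ± 0.17. SQLE and MVD were lower in 9 of 12. Of all loci tested 22 (0.15%) were lower in at least 11 of 12 cows and 23 (0.156%) were higher in as many, and 6 of the 22 were among these 12 loci. SREBF2, the transcription factor that controls the pathway, was lower in 11 of 12 cows as well, at medians of 147 and 116 CPM (-0.31 ± 0.16).

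With each cow as its own control over the 24 libraries, a paired fit with cow as a block, LSS had the smallest p of all 14714 loci. The pairing follows the cow labels, although the D7 library of cow 8660 correlated at 0.66 with the D14 library of cow 8513 and at -0.02 with its own. LSS differed by -0.37 ± 0.05 (p = 1.21e-05, FDR = 0.178 in edgeR), HMGCS1 by -0.52 ± 0.11 and MSMO1 by -0.49 ± 0.11. In that fit 8 of the 12 loci had p of at most 0.05, beside 97 loci lower at that p among all (0.659%), and no locus passed the FDR. When cow was a block over all 60 libraries, 1 of the 12 had such a p. The 12 were picked after their values were seen, so these counts and the counts of cows above carry no test.

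**Figure D3:**
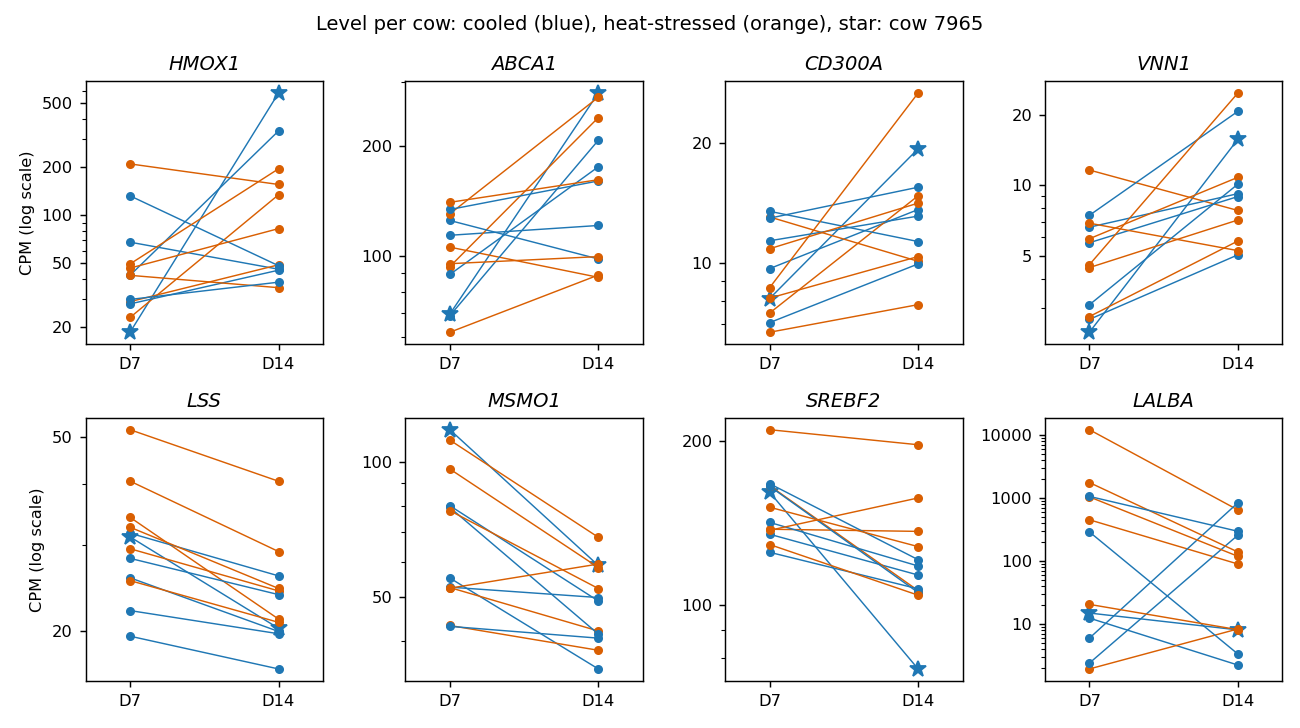
CPM on a log scale at D7 and D14 for HMOX1, ABCA1, CD300A, VNN1, LSS, MSMO1, SREBF2 and LALBA, each with its own axis, with a line joining both libraries of a cow (blue for cooled, orange for heat-stressed, star for cow 7965). LSS slopes down in 12 of 12 cows and MSMO1 in 11, while the LALBA lines cross over a range from 1.93 to 12157 CPM.

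The named milk genes were lower at D14 with both treatments pooled, with wide errors. The caseins CSN1S1 and CSN2 and LALBA, the lactose synthase subunit alpha-lactalbumin, had log2 fold changes of -1.17 ± 1.03, -1.33 ± 1.01 and -2.80 ± 1.23. LALBA ran from 1.93 to 12157 CPM at D7 (median 155) and from 2.23 to 840 CPM at D14 (median 104), so the groups overlapped over most of their range. Its p was 0.027 in edgeR, and without cow 8513, whose D7 library held the 12157 CPM, the change was -1.40 with a p of 0.23. CSN1S1 had medians of 3499 and 2383 CPM and was lower in 8 of 12 cows. It too was highest in the D7 library of cow 8513, at 72507 CPM. The median of the 3 genes was -0.14 with cow as a block and cows 8513 and 8660 left out. In CL cows no fitted change of the 3 was negative: CSN1S1 changed by 0.57, CSN2 by 0.14 and LALBA by 0.02. In cows 8603 and 8647 CSN1S1 rose from 346 to 12204 CPM and from 252 to 9121 CPM, and LALBA rose too. In the other CL cows, 7965, 8060, 8564 and 8686, both genes were lower at D14. In HT cows the changes were -1.81, -1.78 and -3.93. Cow 8513 is an HT cow, and the HT cows were not fitted without it. CSN1S1 was lower at D14 in HT cows 8513, 8660, 8668 and 8713 and higher in 8314 and 8541. The difference between treatments for LALBA did not pass (p = 0.107 in edgeR).

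All 17 named genes of milk fat synthesis and secretion were lower at D14, whereas 48.2% of all loci were. All 17 had also been called lower from D-3 to D3, and of 1330 loci so called 982 were lower again at D14. None of the 17 had a p of at most 0.05 from D7 to D14, and 4 had an interval within 1 log2 unit. The median was -0.46, which became -0.19 without cow 8513, with 16 of 17 still lower. The lowest was BTN1A1, butyrophilin of the milk fat globule, at -0.95 ± 0.84 with medians of 148 and 95.1 CPM, then SCD, stearoyl-CoA desaturase, at -0.91 ± 0.64. SREBF1, the lipogenic transcription factor, had medians of 125 and 121 CPM and a change of -0.07 ± 0.27 that was 0.00 without the 7965 library. In CL cows 12 of the 17 were lower (median -0.06) and in HT cows, cow 8513 included, 17 of 17 (median -0.57). The genes for glucose use and lactose synthesis had a median of -0.08 with all 7 intervals within 1 log2 unit, from B4GALT1, the catalytic subunit of lactose synthase, at -0.23 ± 0.28 to the hexokinase HK2 at 0.37 ± 0.25. Both moved without the 7965 library, to -0.14 and 0.14, and HK2 was at 70.2 CPM in it against at most 34.0 CPM in the other D14 libraries.

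PTHLH, the parathyroid hormone-related protein made by mammary epithelium, had D7 values of 0.559 to 69.3 CPM and D14 values of 0.637 to 2.89 CPM, a log2 fold change of -2.24 ± 0.82. That too rested on cow 8513, whose D7 library was the highest, and it was -0.61 without that cow. The unnamed XLOC_022760 was not counted at the median of either day and reached 27.1 CPM in 1 D7 library, so its change of -6.06 ± 1.49 carried little information, and XLOC_017557 (-0.98 ± 0.39) became -0.41 without cow 8713. The growth signalling inhibitor SPRY2 had the smallest p among lower named genes. It ran from 27.6 to 53.7 CPM at D7 and from 17.3 to 46.7 CPM at D14, was lower in 10 of 12 cows, and differed by -0.30 ± 0.11, or -0.25 without the 7965 library. Without cow 7965 altogether its change was -0.19 and its p 0.066 in edgeR.

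The remaining lower named genes with small p-values differed little in size or were scarce. NAT10, an RNA acetyltransferase (-0.20 ± 0.09), PLA2G4A, the cytosolic phospholipase A2 (-0.25 ± 0.12), EXOSC5, an exosome subunit (-0.28 ± 0.14), and the small nucleolar RNA SNORD22 (-0.37 ± 0.15) each lost p = 0.05 when 1 or more single cows were left out. ANKRD1 (-1.66 ± 0.71) was at medians of 0.391 and 0.271 CPM. The latent TGF-beta binding protein LTBP4 (-0.44 ± 0.23) was lower in 10 of 12 cows. Among genes higher in at least 11 of 12 cows, SLC30A1, the zinc exporter, had 16.8 and 21.9 CPM at the medians and a change of 0.39 ± 0.15 (0.37 without the 7965 library). USP3 (0.18 ± 0.09), CMC1 (0.18 ± 0.12), SPG21 (0.15 ± 0.15) and MANSC1 (0.11 ± 0.15) followed. SCLT1 was lower in 11 of 12 by 0.22 on the log2 scale.

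The named members of gene groups tied to involution itself had medians close to 0. Many members could not be tested by name: 8 of 19 apoptosis genes were, 8 of 26 for autophagy and lysosome, 10 of 30 for the matrix and 3 of 16 for hormone receptors and lactation factors. The 20 lists held 152 tested members with a symbol, of which 76 were higher and 76 lower, and none passed the FDR. At a p of at most 0.05 there were 6 higher (3.95%, beside 1.61% of all loci) and 2 lower (1.32%, beside 0.136%). Symbols went only to loci in the study's lists at hand, a choice that may depend on p-values, so these shares carry no test either. For 18 of the 20 lists the mean level moved by less than 1 SD of the D7 libraries. The exceptions were the haem and iron list, higher by 0.254 against an SD of 0.227, and the lipid-laden macrophage list, higher by 0.364 against 0.356. These means include the 7965 library, whose macrophage list level was 7.22 against at most 6.86 in the other D14 libraries. The 8 apoptosis and involution genes lay between 0.01 and 0.12, with BCL2L1 at 0.12 ± 0.14 and CASP9, caspase 9, at 0.01 ± 0.08 with 22.3 to 31.1 CPM at D7 and 23.8 to 29.8 CPM at D14. All 8 autophagy and lysosome genes had intervals within 1 log2 unit, from WIPI1 at -0.04 ± 0.29 to LAMP1, the lysosomal membrane protein, at 0.19 ± 0.15. All 8 tight junction genes did too, from TJP1, the scaffold ZO-1, at -0.08 ± 0.08 to CLDN15 at 0.27 ± 0.17 (0.15 without the 7965 library), and the median of 0.05 became 0.12 without it. The 3 hormone receptor and lactation factor genes had a median of -0.15, or -0.03 without the 7965 library, with STAT5B at -0.16 ± 0.17 and NR3C1, the glucocorticoid receptor, at -0.03 ± 0.15.

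**Figure D4:**
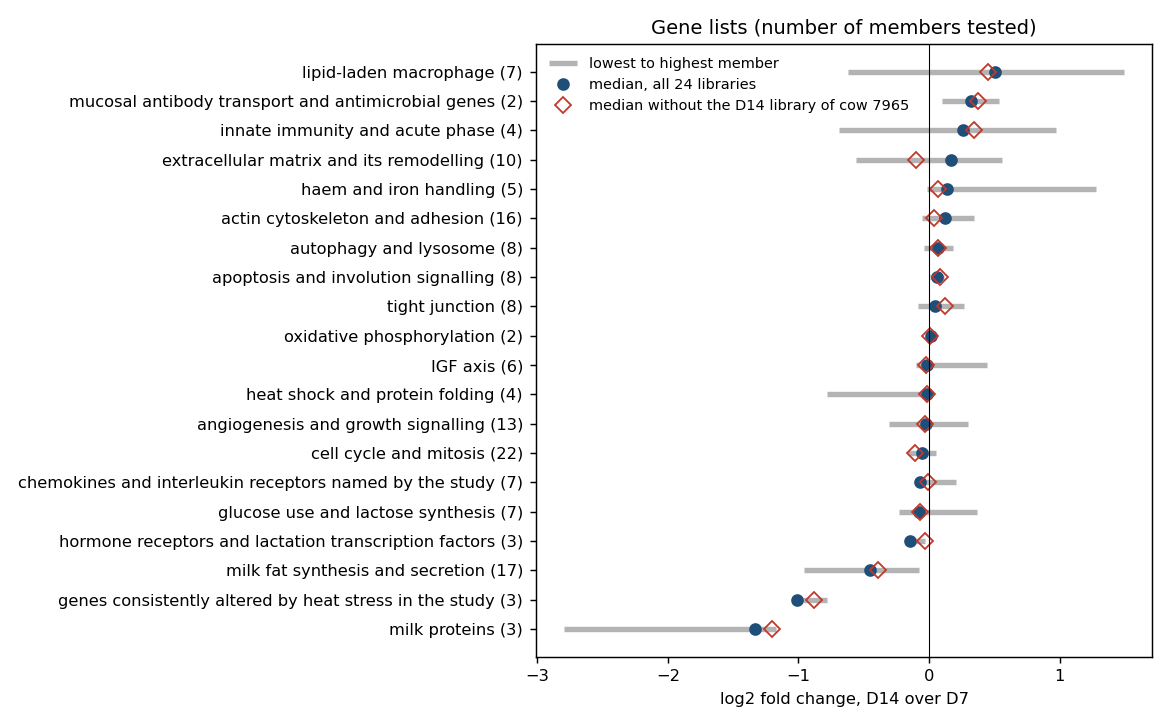
For each list, with the number of members tested in brackets, the grey bar spans the lowest to the highest log2 fold change of D14 over D7, the filled circle is the median with all 24 libraries and the open diamond the median without the D14 library of cow 7965. Most medians lie near 0, milk proteins at -1.33 and lipid-laden macrophage genes at 0.51 are the extremes, and the matrix list crosses 0 between both settings.

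The 22 cell cycle genes, which rise when the gland rebuilds, had a median of -0.06 with 17 lower and 21 intervals within 1 log2 unit. The median was -0.11 with 20 lower without the 7965 library and 0.07 without cow 8314. CDC6 (-0.16 ± 0.35) and FOXM1 (0.06 ± 0.38) marked their ends. The 16 actin and adhesion genes had a median of 0.12 (0.04 without the 7965 library), with FLNA, filamin A, lowest at -0.06 ± 0.21 and TMSB10, thymosin beta 10, highest at 0.34 ± 0.18 (0.21 without it). The 10 matrix genes went from a median of 0.17 to -0.10 without that library: TIMP2, a metalloproteinase inhibitor, was at 478 CPM there against a D14 median of 70.6 CPM and went from 0.56 ± 0.30 to -0.03, and COMP was at -0.56 ± 0.58. Of the IGF axis, IGFBP5, a binding protein of involuting epithelium, went from 0.44 ± 0.32 to -0.05 and the insulin receptor INSR from -0.10 ± 0.13 to -0.02. The angiogenesis and growth signalling genes had a median of -0.03, with KDR at 0.30 ± 0.22 and 0.10 without the library.

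The chemokine and interleukin receptor genes that the study had singled out had a median of -0.07 over 7 genes (-0.01 without the 7965 library), from IL1R1 at -0.11 ± 0.20 to IL10RB at 0.20 ± 0.13. Those ends were -0.06 and 0.13 without the library. Of the mucosal list 2 genes could be named, FCGRT, the neonatal Fc receptor, at 0.10 ± 0.21 and the antiprotease SLPI, near its floor, at 0.54 ± 0.72. The 4 heat shock genes had a median of -0.02, with DNAJA1 at 0.03 ± 0.12 and DNAJC12 at -0.78 ± 0.68. NDUFS1 and NDUFS3 of respiratory complex I were at 0.03 ± 0.12 and 0.00 ± 0.08. The 3 genes that the study named as altered by heat stress had a median of -1.01 and wide intervals, with GP2 ranging from 4.36 to 301 CPM at D7 and from 0.336 to 77.5 CPM at D14. The 44 pathways listed by the study for D-3 to D3 had medians between -0.40 and 0.14 here, and 34 of them were under 0.1 in size.

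Of 16 named markers of tissue components other than macrophages none passed the FDR, and 2, ADIPOQ and MYH2, had a p of at most 0.05. The plasma cell gene DERL3 was at -0.02 ± 0.15, KRT5 at -0.18 ± 0.30, KRT19 at -0.04 ± 0.34 and DCN at 0.30 ± 0.24, and the last 3 became -0.06, 0.09 and -0.18 without the 7965 library. ADIPOQ, adiponectin of fat cells, had a D7 median of 18.8 CPM and a D14 median of 13.3 CPM, yet a fitted change of 0.93 ± 0.44, since 1 D14 library reached 313 CPM. It was -0.53 without cow 8541. MYH2, a skeletal muscle myosin, was near its floor in most libraries, reached 9.65 CPM in 1 at D14, and went from 1.83 ± 0.82 to -0.97 without cow 8314. No member of the lists for neutrophils, T cells, B cells, red cells or skin could be named, and the scarce haemoglobin locus given above was not on the red cell list. The part of the cell mix in the values of other genes was not tested.

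Most loci called at dry-off had the same sign from D7 to D14, at small size. From D-3 to D3, 2217 loci were called (15.1%), and neither of those groups of libraries enters D14 against D7, though the cows are the same. Of the 887 loci called higher at D3, 678 (76.4%) were higher again at D14 than at D7, with a median log2 fold change of 0.07 beside 0.60 at dry-off. Of the 1330 called lower, 982 were lower again, with a median of -0.06 beside -0.68. Over all loci 51.8% were higher at D14. Without the 7965 library the figures were 644 of 887 and 1016 of 1330. None of these loci passed the FDR at D14. At a p of at most 0.05, 21 of the first group were higher and 1 lower, and 1 of the second was higher and 6 lower, beside 1.61% and 0.136% of all loci. Without the 7965 library these were 4 and 1, then 0 and 6. Genes in 1 library vary together, so these shares carry no test.

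**Figure D5:**
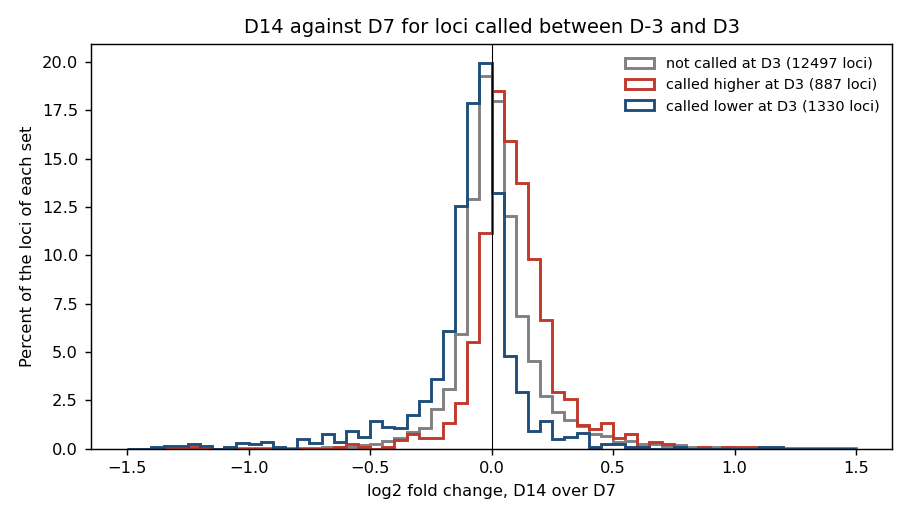
Percent of loci by log2 fold change of D14 over D7, for the 887 loci called higher and the 1330 called lower between D-3 and D3 and for the 12497 loci not called then; values beyond 1.5 are not drawn. The red curve is shifted to the right with a median of 0.07 and the blue curve to the left with a median of -0.06.

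Levels did not become more alike between cows with time. The median between-cow SD of log2 CPM was 0.325 at D7 and 0.376 at D14, with a larger SD at D14 for 67.3% of loci. Without cow 7965 the medians were 0.326 and 0.334 and the share 51.8%.

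Cooled and heat-stressed cows were also fitted separately for the step from D7 to D14. Neither group had a locus past the FDR, and neither did the difference between them. At an unadjusted p of at most 0.05 there were 364 loci in CL, 58 in HT and 185 for the difference. Without the 7965 library, which belongs to CL, these were 28, 67 and 43. The smallest p of the difference, that of SEMA5B (HT minus CL -3.65, FDR = 0.914 in edgeR), was -1.16 without that library. For the difference between treatments 60.4% of loci had an interval within 1 log2 unit. The log2 fold change of ABCA1 was 0.80 in CL and 0.60 in HT, that of CD300A 0.40 and 0.61, that of VNN1 1.32 and 0.76, and that of LSS -0.33 and -0.42.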

How the data were processed

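Libraries were made from poly(A) RNA and sequenced as 150-base single-ended reads. Per the labels and the study's methods, the authors trimmed reads with Trim Galore 0.4.1, aligned them with TopHat2 2.0.13, merged transcripts with Cufflinks 2.2.1 and ENSEMBL genes, and counted reads per locus with HTSeq. The deposited values are these raw counts. The genome build is named bosTau7 in the methods and UMD3.1 in the submitters' notes. Loci can join neighbouring genes, and strand-specific counting was not given in the sources used here.

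Groups came from the day in the labels. A locus was tested where 6 or more of the 60 libraries held 1 CPM or more, with edgeR 4.0.16 (TMM factors, quasi-likelihood F-test, all 60 libraries, a mean per day; R 4.3.3) and Benjamini-Hochberg adjusted; each interval is 95% and comes from the fitted coefficient and its SE. CPM values carry TMM factors, and log2 CPM a prior count of 2. limma 3.58.1 and DESeq2 1.42.0 served alternatives. The method was tested on simulated data with the same dispersion for every locus, no cow effect and no library set apart. That test therefore does not cover these features of the real libraries. Cows are the replicates. Libraries of 1 cow are paired by the label; the deviations of D7 and D14 libraries from their day's mean correlated above 0.1 in 7 of 12 cows. The comparison is unpaired, with cow as a block as an alternative.

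Symbols come from the study's supplementary lists, as far as these were at hand. Named were the 10 higher and 10 lower loci of smallest p with a symbol and 2 of each without, the extremes of each list and its members with p of at most 0.05, loci called in any alternative, the 5 highest and lowest in the 7965 library, those moving alike in at least 11 of 12 cows, the 3 smallest p between treatments, the 5 narrowest intervals over 100 CPM and the first marker per cell type. The members and lists were chosen with earlier results of these data known. Some fits without the 7965 library and the sterol genes were added after seeing the data. No sequences are printed. A few genes are not reported here.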

Additional observations from a re-analysis of the deposited data

Results flagged for a closer look

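The mean log2 CPM of each of the 20 lists was screened in the 4 groups of 6 libraries (each treatment at D7 and D14) for a library whose gap to the nearest other took a larger part of the group's range than Dixon's 95% critical value. Of 80 groups 6 had such a library, and chance gives about 1 in 20. In 3 of them it was the D14 library of cow 7965 among the cooled cows: its tight junction level was 3.27 against 5.79 to 6.06 in the other 5, its hormone receptor and lactation factor level 5.16 against 6.94 to 7.19, and its chemokine and interleukin receptor level 4.38 against 5.11 to 5.38. The other 3 were at D7. Heat-stressed cow 8541 had a glucose and lactose level of 5.90 against 6.22 to 6.38, heat-stressed cow 8314 a lipid-laden macrophage level of 5.56 against 6.00 to 6.25, and cooled cow 8564 a level of 5.21 for the genes linked to heat stress against 3.03 to 3.72.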

How the results depend on the processing

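No locus passed the FDR in the reported fit or under 29 of the 30 other settings tried, and 10 did with tagwise dispersions. These 10 had no symbol, were all highest in the D14 library of cow 7965, and went from log2 fold changes of 1.72 to 3.56 to -0.52 to 0.39 without it. Beside 257 loci at an unadjusted p of at most 0.05 there were 132 with library size only, 87 with limma-voom and 782 with no filter on low counts. Leaving out 1 cow gave 61 (without cow 7965) to 348, and leaving out the D14 library of cow 7965 alone gave 77. That library was also left out in settings chosen after seeing the data, which gave 100 with cow as a block, 137 with the 24 libraries only and 53 with limma-voom. Cow as a paired block gave 229 such loci over 60 libraries and 243 over 24, of which 97 were lower, and no FDR call. For CL the count was 28 without that library and for the difference 43, and for HT it was 94 with the block. Loci with an interval within 1 log2 unit numbered 12784 to 13239 over the cows left out.

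Signs turned where 1 library decided a value. With DESeq2, which replaces counts far from their group, the log2 fold change was -0.15 for XLOC_017093, -0.46 for SEMA5B, -0.28 for LRRC17 and -0.57 for ADIPOQ. With limma-voom ADIPOQ was -0.067. With cow as a block over 24 libraries SEMA5B was -0.14, LRRC17 -0.041, MYH2 -0.058 and ADIPOQ -0.18. Without the 7965 library, XLOC_017093 was -0.16 with the block, -0.12 with 24 libraries and -0.14 with limma-voom, SEMA5B was -0.42, -0.44 and -0.35, LRRC17 was -0.13, -0.25 and -0.32, DPT was -0.015, -0.067 and -0.027, and ADIPOQ was -0.0062 with limma-voom. With 1 cow left out, XLOC_017093 ran from -0.19 to 3.855, SEMA5B from -0.51 to 1.72, LRRC17 from -0.20 to 1.22 and DPT from -0.11 to 1.30, each lowest without cow 7965, while ADIPOQ ran from -0.53 without cow 8541 to 1.17 and MYH2 from -0.97 without cow 8314 to 2.42. Of 600 list medians under the alternatives 37 had the other sign, spread over 9 of the 20 lists and 11 of them in the IGF axis. The matrix median ran from -0.11 to 0.26, that of tight junctions from -0.11 with limma-voom to 0.13, that of the cell cycle from -0.27 without cows 8513 and 8660 to 0.07, and that of milk fat from -0.51 to -0.078, while that of lipid-laden macrophages stayed between 0.36 and 0.59. The share of loci with an interval within 1 log2 unit was lowest under 1 CPM, and the effect of depth was not tested.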

Other observations

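The D7 and D14 libraries of 1 cow were compared by correlating, over the loci tested, their deviations from the mean of their day. Over the 12 cows this correlation ran from -0.02 to 0.72 with a mean of 0.30, beside a mean of -0.03 over the 132 pairs from different cows, and the points share libraries. In 4 of 12 cows the own D14 library was the most alike. The D7 library of cow 8660 had 0.66 with the D14 library of cow 8513 and -0.02 with its own, and the D7 library of cow 8513 had 0.25 with the D14 library of cow 8660 and 0.05 with its own. Counts of cows and all paired p-values rest on the numbers as labelled.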
